A study of Mus musculus with 3 samples.

Results

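Collagen chains and the enzymes that process them were examined in RNA-seq of MC3T3-E1 cells, a mouse line of preosteoblasts from calvaria (wild type per the labels). The chains were taken as every gene in the table named Col, a type number, a and a chain number, which gave 38 genes, and the enzymes as a list of 27 genes of hydroxylation, folding, export, propeptide removal and cross-linking. Together they were 65 of the 15287 genes listed. The study had 1 library per condition. The CTL library came from cells without treatment, and the Ti library from cells kept for 24 h with titanium (Ti) particles at a dose of 10 μg/cm2. For the Ti+Se-Met library, 5 μM selenomethionine (Se-Met) was given together with that dose of particles, also for 24 h. All 3 were cultures of the same line, and the study's methods give an incomplete medium, not further described, for treatments of this dose and time. Values are FPKM, fragment counts divided by transcript length and by the library's mapped total, as the authors deposited them. Where 3 values of a gene follow each other, they are in the order CTL, Ti, Ti+Se-Met. With 1 library per condition no difference has a replicate check, no p-value is given, and each comparison is of libraries.

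A collagen is built of 3 chains wound into a triple helix, and each chain needs a glycine at the start of every triplet of residues in the helix. Chains are made into the endoplasmic reticulum (ER), where hydroxylases modify prolines and lysines and chaperones hold the helix, before export, removal of the propeptides and cross-linking by lysyl oxidases outside the cell. Type I collagen is the main protein of bone matrix, and osteoblasts are its chief source there. The repeat can be read in the coding sequences. Below are the first 90 bases of the longest unbroken run in the chain with the highest level, in its partner, and in Col8a1, Col24a1 and Col18a1, which stood at the ends of the results, with the glycine codon (GGN) that opens each triplet in capitals. The sequences are from GENCODE M21 on GRCm38, read 5′ to 3′ on the coding strand, and the span includes the introns that divide them.
Col1a2, plus strand, chr6:4512406-4515516: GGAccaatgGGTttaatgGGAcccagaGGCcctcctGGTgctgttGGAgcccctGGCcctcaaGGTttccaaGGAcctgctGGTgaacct
Col1a1, plus strand, chr11:94939451-94939939: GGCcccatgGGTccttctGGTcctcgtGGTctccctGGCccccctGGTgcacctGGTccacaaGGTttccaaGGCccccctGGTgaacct
Col8a1, minus strand, chr16:57627994-57628083: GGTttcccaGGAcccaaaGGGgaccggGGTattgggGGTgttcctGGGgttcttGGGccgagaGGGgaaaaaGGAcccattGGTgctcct
Col24a1, plus strand, chr3:145325728-145337844: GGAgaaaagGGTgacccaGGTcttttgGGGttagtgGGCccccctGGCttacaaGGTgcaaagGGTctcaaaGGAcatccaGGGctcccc
Col18a1, minus strand, chr10:77077195-77077746: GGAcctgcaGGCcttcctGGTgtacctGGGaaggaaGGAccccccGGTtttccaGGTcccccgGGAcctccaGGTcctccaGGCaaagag

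The run holds 338 such triplets in Col1a1 and 339 in Col1a2, but 216 in Col24a1, 60 in Col8a1 and 30 in Col18a1, whose helix is broken many times. A proline codon (CCN) stood in the third place of the triplet, where prolyl 4-hydroxylase acts, in 35.2% of the triplets of Col1a1, 28.0% of those of Col1a2 and 49.3% of those of Col8a1. Exons of 54 bases, which hold 6 triplets in fibrillar collagens, made up 21 of the 51 coding exons of Col1a1, 24 of the 52 of Col1a2 and 0 of the 2 of Col8a1. Among the 23 chains that passed the filter below, between 50 and 444 triplets lay in runs of at least 5.

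The FPKM values of all genes summed to 448285, 526017 and 514568, and steps in the values of short genes placed the depth near 14400000, 14800000 and 10200000 fragments. Differences are in log2(FPKM + 1), which makes them smaller for low genes, over the 11137 genes that reached 1 FPKM in any library. Among the members, 47 passed this filter, 23 of them chains and 24 enzymes. The label of the cells was checked against fixed markers. Runx2, a transcription factor of the osteoblast lineage, was at 26.8, 17.1 and 22.97 FPKM, and Spp1 (osteopontin) at 1261, 3706 and 4659, whereas Ibsp, Bglap and Sp7 were below 1 in each library. Of the 8 osteoblast markers, 5 reached 1 FPKM, and their summed level was 1307, 3735 and 4698, nearly all of it Spp1. Alpl, at 1.51, 0.2 and 0.2 FPKM, Bglap2, at 3.76, 1.51 and 2.98, and Dlx5, at 12.3, 9.34 and 11.2, were highest in CTL. Of the markers of other cells in the table, 0 of 3 of adipocytes and 0 of 1 of endothelium reached 1 FPKM. Of 4 for macrophages and osteoclasts Ctsk alone did, at 17.8, 29.7 and 26.2 FPKM, and of 2 for muscle Des alone, at 1.05, 0.32 and 0.45. Of 2 for chondrocytes Sox9 did, at 24.9, 36.3 and 39.3 FPKM, and the part of these lists in the results was not tested. In bulk RNA, fewer cells making a transcript and less of it per cell cannot be told apart.

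Chains were lower in the Ti library, and the enzymes were much nearer to their CTL level. All 23 chains were lower in Ti than in CTL, as deposited and under each of 3 scalings between libraries, against 44.5% of all 11137 genes as deposited and 59.7% with TPM scaling (each library rescaled to the same sum). Col24a1 and Col15a1 reached 1 FPKM in CTL alone, so the filter fixed them to be lower as deposited. Col24a1 also counts among the 2-fold lower chains below. At least 2-fold lower were 11 chains, against 3.64% of all genes, or 15 with TPM scaling, against 6.05% under that scaling. As deposited, 17 were at least 1.5-fold lower, against 11.3%. At least 2-fold higher were 0 members, against 3.63% of all genes, and 0 were 1.5-fold higher, against 15.5%. Of the 24 enzymes, 17 were lower and 6 higher as deposited, where 55.3% of all genes were higher. P4ha3 alone of the 24 was at least 2-fold lower, against 3.64% of all genes, and 3 of the 24 were at least 1.5-fold lower, against 11.3%. Both counts were close to the share of all genes. The median difference was -0.97 for chains, -0.24 for enzymes and 0.08 for all genes, so the medians of chains and enzymes were 0.73 apart. Taken as a share of all FPKM in the library, chains made up 1.6%, 0.558% and 0.732%, while enzymes made up 0.6%, 0.436% and 0.496%. For each FPKM of enzymes there were thus 2.67, 1.28 and 1.48 FPKM of chains, a ratio that no scaling between libraries can move. Without the chains of type I, the ratios were 1.17, 0.690 and 0.795.

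**Figure D1:**
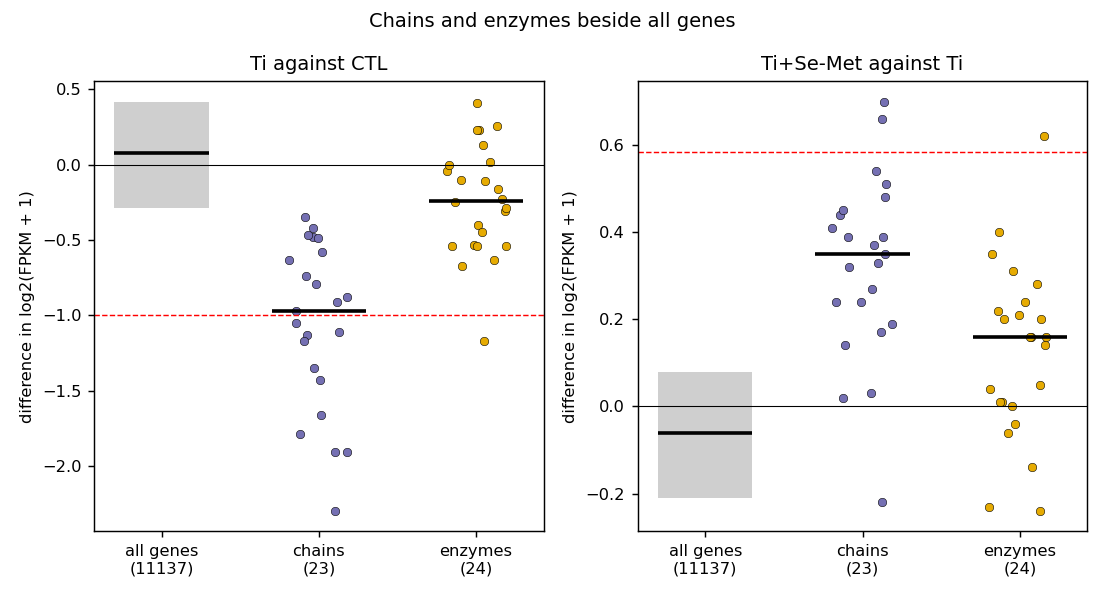
Differences in log2(FPKM + 1) for Ti against CTL (left) and Ti+Se-Met against Ti (right), with 1 point for each of 23 chains and 24 enzymes, a bar at each median, and a grey box for the middle 50% of all 11137 genes. The chains lie below 0 on the left, with a median of -0.97 against -0.24 for enzymes, and mostly above 0 on the right, and the dashed lines mark 2-fold lower and 1.5-fold higher.

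A scaling multiplies a whole library by 1 factor, so it shifts the differences of all genes nearly alike and by construction hardly moves the distance of a list from the centre. TPM scaling took the median difference of all genes in Ti against CTL from 0.08 to -0.13. Relative to that centre, chains were at -1.05 as deposited, -1.07 with TPM, -1.05 when libraries were matched on the median of their gene ratios and -1.06 when matched on their upper quartile, and enzymes at -0.32, -0.34, -0.32 and -0.33. The split of the enzymes around 0 did depend on it, since 21 were lower with TPM scaling and 19 with each of the others.

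The chains that form fibrils held the highest level and most of the difference. Col1a2 and Col1a1 encode the α2 and α1 chains of type I collagen. The FPKM of Col1a2 were 2688, 999 and 1257, which placed it at rank 4, 84 and 57 among all genes of the library. For Col1a1 they were 1333, 354 and 482, at rank 29, 191 and 151. CTL was thus the highest and Ti the lowest library for both, and Col1a1 differed more, with a Ti to CTL fold of 0.266 (95% interval of counting error 0.262 to 0.269) beside 0.372 (0.368 to 0.375) for Col1a2. In log2(FPKM + 1) these were differences of -1.91 and -1.43. Together the type I chains took 56.1%, 46.1% and 46.2% of the FPKM of all chains.

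Col3a1, the chain of type III collagen, which joins type I in the fibrils of many tissues, stood at 416, 190.1 and 214 FPKM. Type V collagen sits inside type I fibrils and limits their width, and its chains differed least among the fibrillar members that passed. Col5a2 had 161, 115 and 117 FPKM, Col5a1 had 89.5, 59.7 and 70.7, and Col5a3 had 29.5, 17.2 and 23.2, with differences in Ti against CTL from -0.74 to -0.48. The remaining fibrillar chains were minor in level and large in difference. Col11a1, a chain of the thin fibrils of cartilage, was at 11.2, 2.53 and 3.42 FPKM, and CTL stood well above the others. Col27a1 had 9.72, 3.77 and 4.27. Col24a1, a fibrillar chain known from developing bone, was at 5.34 FPKM in CTL and below 1 in the others, at 0.69 and 0.72, so it passed the filter through CTL alone, as did Col15a1 below. Its fold in Ti against CTL was 0.129 (0.0988 to 0.165), on about 538 and 71 fragments, the lowest fold of the 47 members that passed. Col2a1, the chain of cartilage fibrils, did not pass, at 0.18, 0.24 and 0.72 FPKM, and Col11a2 was at 0.52, 0.35 and 0.09.

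**Figure D2:**
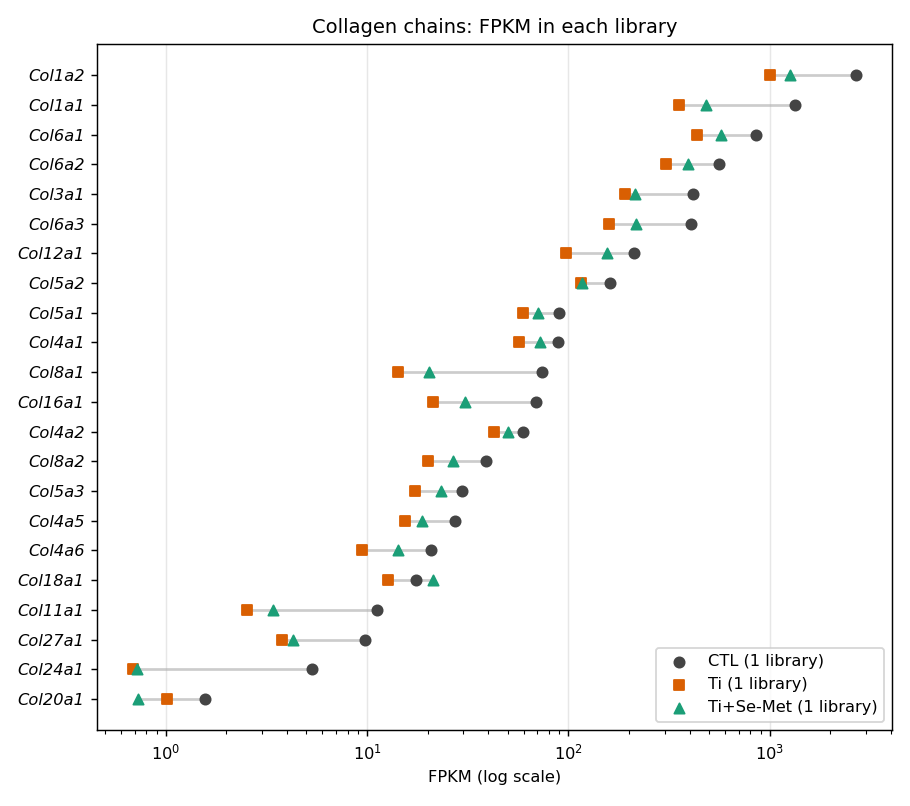
FPKM (log scale) of the 22 collagen chains with a mean of at least 1 FPKM, sorted by their level in CTL, with 1 point per library. The CTL point is the highest for each chain but Col18a1, and the distance between CTL and Ti is widest for Col24a1, Col8a1 and Col11a1.

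Type VI collagen forms beaded filaments around cells, from the chains of Col6a1, Col6a2 and Col6a3. In CTL, Col6a1 and Col6a2 were the highest chains after type I. In Ti and Ti+Se-Met, where Col1a1 stood at 354 and 482 FPKM, Col6a1 was above it. Col6a3 was close to Col3a1 in level. Col6a1 had 851, 434 and 570.0 FPKM, and Col6a2 had 561, 305 and 394. Col6a3 had 407, 159 and 218, and was as deposited the only one of them to be at least 2-fold lower in Ti than in CTL, at a fold of 0.391 (0.385 to 0.397). Col6a1, at a difference of -0.97, was past 2-fold under all 3 scalings, from -1.20 to -1.01, and Col6a2, at -0.88, with TPM scaling alone, at -1.11. Fibril-associated collagens bind to the surface of fibrils. Col12a1, of this class and common in tendon and periosteum, had 212, 97.7 and 155 FPKM, and Col16a1 had 69.2, 21.2 and 30.8, so both were at least 2-fold lower in Ti. Col20a1 was low throughout, at 1.56, 1.01 and 0.73 FPKM, and of the 23 chains that passed it alone was lower in Ti+Se-Met than in Ti, under every scaling. Its fold there was 0.723, on about 73 fragments in Ti and 36 in Ti+Se-Met, with an interval of 0.466 to 1.08 that holds equal levels.

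Network-forming chains were split. Type IV collagen is the sheet of basement membranes, and its genes lie in pairs that share a promoter region, Col4a1 with Col4a2 and Col4a5 with Col4a6. Col4a1 stood at 88.3, 56.6 and 72.2 FPKM, and Col4a2 at 59.2, 42.4 and 50.3. Col4a5 was at 27.2, 15.4 and 18.7, and Col4a6, at 20.7, 9.46 and 14.2, was as deposited the only type IV chain to be at least 2-fold lower in Ti, at a difference of -1.05. With TPM scaling Col4a5 was past 2-fold too, at -1.01, and with a pseudocount of 5 Col4a6 was not, at -0.83. Col18a1, whose end is released as endostatin, had 17.4, 12.7 and 21.3 FPKM and of the chains that passed it alone was above its CTL level in Ti+Se-Met. Its fold there was 1.22 (1.12 to 1.33), a difference of 0.28 that was between 0.09 and 0.3 under the scalings. Col15a1, its relative, was at 1.16, 0.54 and 0.76 FPKM. Type VIII collagen makes short-chain networks in vessel walls and the cornea. Col8a1 was at 73.9, 14.3 and 20.2 FPKM, the largest difference of any member in log2(FPKM + 1), -2.30, while its partner Col8a2 had 38.8, 20.2 and 26.8.

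Below the filter were 15 chains, whose values ran from 0 to 0.99 FPKM. Col7a1, the chain of anchoring fibrils, was the nearest to it, at 0.99, 0.61 and 0.75, against 1.16 in CTL for Col15a1, the lowest chain inside. At these values a difference was mostly not detectable at this depth. On a transcript of 1 kb, 1 fragment was worth 0.0694, 0.0676 and 0.098 FPKM, and less on longer ones such as these. In Ti against CTL, Col7a1 had a fold of 0.616 (0.463 to 0.822), on about 129 and 82 fragments. Col14a1 had 0.214 (0.0191 to 0.811), on about 11 and 2. The intervals of the other chains below the filter, where given, held equal levels in that comparison. The remaining chains below the filter were Col4a3, Col4a4, Col6a4, Col6a5, Col9a2, Col9a3, Col14a1, Col17a1, Col22a1, Col23a1 and Col28a1, none of them above 0.38 FPKM. Col10a1, of hypertrophic cartilage, was listed at 0 but for 0.03 with Se-Met.

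Prolyl 4-hydroxylase makes the hydroxyproline that keeps the helix stable at body temperature, from α subunits (P4ha1, P4ha2, P4ha3) that are catalytic and a β subunit, P4hb, that is also protein disulfide isomerase. The subunits differed among themselves. P4hb was at 435, 441 and 485 FPKM, and its difference of 0.02 in Ti against CTL turned below 0 under all 3 scalings. P4ha1, the main α subunit, had 117, 72.8 and 86.3 FPKM, and P4ha3 had 72.5, 31.7 and 49.2. P4ha2 was equal in CTL and Ti, at 31.0, and lower in Ti+Se-Met, at 26.1. P4ha3 was the enzyme with the largest difference, at a fold of 0.437 (0.405 to 0.470) in Ti against CTL. Measured against P4hb in the same library, P4ha1 was at 0.268, 0.165 and 0.178.

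A complex of P3h1, Crtap and Ppib hydroxylates a few chosen prolines, and P3h3 and P3h4 work with the lysyl hydroxylase of Plod1. Ppib (cyclophilin B) had 206, 241 and 235 FPKM, a difference in Ti against CTL of 0.23 that turned to just below 0 with TPM scaling. Crtap was at 88.4, 72.0 and 80.4, and P3h1, which carries the activity, at 22.7, 21.1 and 19.0. P3h3 was at 71.2, 45.6 and 51.1 FPKM, and P3h4 at 76.3, 52.2 and 53.95. In Ti against CTL these partners of Plod1 had differences of -0.63 and -0.54, whereas Plod1 itself, at 29.2, 26.1 and 26.0, had -0.16. Among the other lysyl hydroxylases, Plod2, which acts on the ends of the chains, was at 22.8, 16.4 and 15.7 FPKM. Plod3 was at 66.0, 72.6 and 83.3, although with TPM scaling it was lower in Ti than in CTL. Colgalt1, which adds galactose to hydroxylysine, was at 49.2, 47.8 and 48.2, and the interval of its fold held equal levels in each pair of libraries.

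The collagen chaperone Serpinh1 (HSP47) had 463, 373 and 432 FPKM. Fkbp10, a prolyl isomerase that helps collagen fold, had 107, 89.8 and 92.5. Tmem38b, an ion channel of the ER membrane, had 4.73, 5.73 and 4.72, with an interval of the fold in Ti against CTL from 0.992 to 1.48. Export of procollagen needs large carriers, for which Mia3 (TANGO1) loads the cargo and Sec24d is a coat subunit. Mia3 was at 46.4, 35.0 and 40.3 FPKM and Sec24d at 52.9, 44.8 and 54.5, so Ti was the lowest library for both.

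Outside the cell, Bmp1 removes the propeptide at the end of the chain and Pcolce raises its activity. Pcolce, the highest of the enzyme list in CTL, had 536, 369 and 429 FPKM, and Bmp1 had 40.3, 27.7 and 35.7. Both were lower in Ti by nearly the same amount, with differences of -0.54 and -0.53. The lysyl oxidases, which start the cross-links, went in different directions. Lox was at 88.3, 118 and 132 FPKM, higher in both treated libraries under every scaling, with a fold of 1.33 (1.29 to 1.38) in Ti against CTL and 1.5 (1.44 to 1.55) in Ti+Se-Met against CTL. Loxl1 had 16.1, 19.5 and 19.6. Loxl3 had 30.4, 28.0 and 37.3, and Loxl4 had 14.9, 9.92 and 12.6. The 3 enzymes that did not pass the filter were Pcolce2 at 0.49, 0.55 and 0.44 FPKM, Tll1, a relative of Bmp1, at 0.37, 0.17 and 0.14, and Loxl2, listed at 0 in CTL and at most at 0.02.

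**Figure D3:**
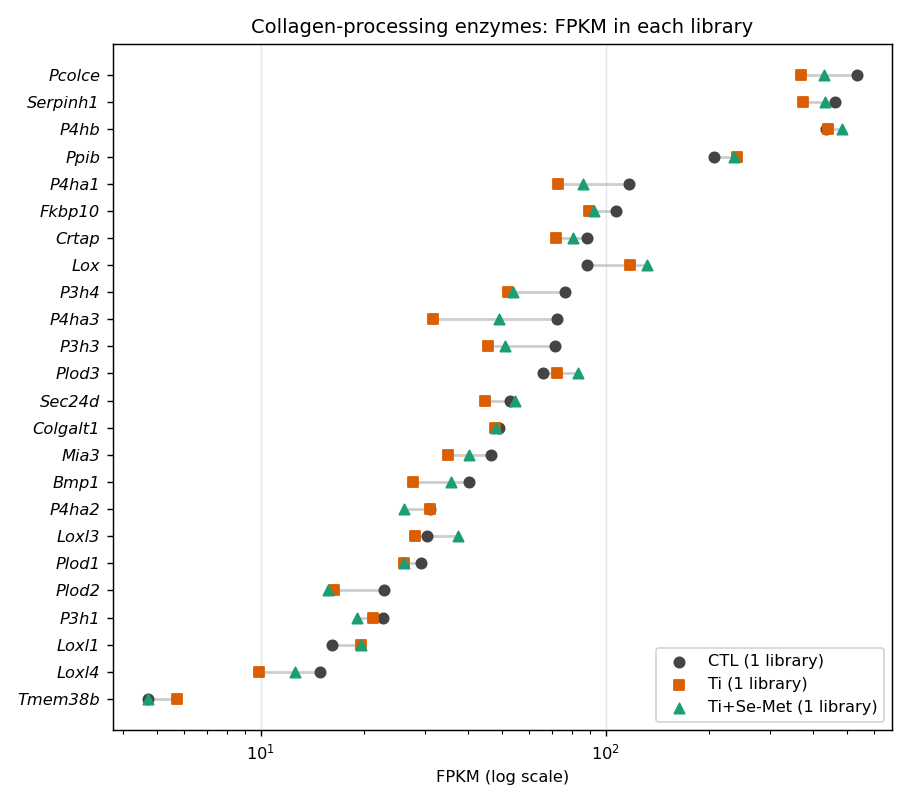
FPKM (log scale) of the 24 enzymes with a mean of at least 1 FPKM, sorted by their level in CTL, with 1 point per library. The median difference in Ti against CTL was -0.24 for these enzymes, beside -0.97 for the chains that passed. P4ha3 is spread widest of the enzymes, and wider than some chains such as Col6a1. Lox lies higher in Ti (118 FPKM) and Ti+Se-Met (132) than in CTL (88.3).

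With Se-Met added to the particles, chains were higher than with particles alone. In Ti+Se-Met against Ti, 22 of the 23 chains were higher, as deposited and under each of 3 scalings, against 38.5% of all genes, and 1 was lower, against 61.1%. The Ti library enters both this comparison and the one with CTL, so they are not independent. Of the 24 enzymes, 18 were higher as deposited and 6 lower, with 5 lower under TPM scaling, 4 by the upper quartile and 3 by the median of ratios. The median difference was 0.35 for chains, 0.16 for enzymes and -0.06 for all genes. At least 1.5-fold higher were 2 chains, Col18a1 and Col12a1, and 1 enzyme, P4ha3, against 0.844% of all genes, while 0 members were 1.5-fold lower (1.29% of all genes). Of the 47 members that passed, 0 were 2-fold higher, against 0.162% of all genes, and 0 were 2-fold lower, against 0.0629%. The fold of Col18a1 was 1.67 (1.53 to 1.83), that of Col12a1 was 1.59 (1.55 to 1.62) and that of P4ha3 was 1.55 (1.43 to 1.69). Next were Col4a6, at 1.5 (1.37 to 1.64), and Col16a1, at 1.45 (1.35 to 1.55). Col1a1 was at 1.36 (1.34 to 1.38) and Col1a2 at 1.26 (1.24 to 1.27).

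The fibrillar chains differed in how far apart these libraries were. The fold of Col5a2 in Ti+Se-Met against Ti was 1.01 (0.984 to 1.04), and that of Col24a1 was 1.04, with an interval of 0.713 to 1.51 that is wide because it rested on about 71 and 51 fragments. Col27a1 had a fold of 1.13 (0.977 to 1.31). Over the 9 fibrillar chains that passed, the median difference was 0.24, beside 0.39 for the 3 chains of type VI and 0.31 for the 6 of basement membranes. Among enzymes, those of lysine modification had a median of 0, the 5 genes P3h1, Crtap, Ppib, P3h3 and P3h4 together had 0.05, and the 4 lysyl oxidases had 0.24. P4ha2 had the lowest difference in log2(FPKM + 1), -0.24, at a fold of 0.84 (0.755 to 0.933).

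Against CTL, the Ti+Se-Met library had 7 chains that were at least 2-fold lower, beside 3.32% of all genes, and 0 enzymes. Lower by any amount were 22 chains and 17 enzymes, against 48.8% of all genes, and higher were 1 chain and 7 enzymes, against 51.0%, as deposited. With TPM scaling 20 enzymes were lower, and 16 by the median of ratios. At 1.5-fold, 9 chains were lower (11.8% of all genes) and 0 members higher (10.4%), and 0 members were 2-fold higher (2.64%). The 7 were Col1a1, Col1a2, Col8a1, Col11a1, Col16a1, Col24a1 and Col27a1. Col24a1, and Col15a1 among the 22, passed the filter through CTL alone, so here too it fixed them to be lower. The median difference was -0.52 for chains, -0.17 for enzymes and 0.01 for all genes, and this comparison shares CTL with the first. Col1a1 stood at a fold of 0.361 (0.357 to 0.366) and Col1a2 at 0.467 (0.463 to 0.472). Col12a1, at 0.734 (0.720 to 0.747), was closer to CTL than either.

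Ratios between members of a library are free of any scaling between libraries. Col1a2 was 2.02 times as high as Col1a1 in CTL (2.0 to 2.03), 2.82 times in Ti (2.78 to 2.86) and 2.61 times in Ti+Se-Met (2.57 to 2.65). The proportions of type I chains thus differed between libraries beyond counting error. Col8a1 to Col8a2 went from 1.91 (1.82 to 2.0) to 0.706 (0.650 to 0.767) and 0.755 (0.693 to 0.822), so that the order of these partners was the other way round in both treated libraries. Col6a3 to Col6a1 was 0.478 (0.472 to 0.484), 0.366 (0.359 to 0.372) and 0.382 (0.375 to 0.389), and Col4a5 to Col4a6 was 1.31 (1.24 to 1.39), 1.62 (1.49 to 1.77) and 1.32 (1.21 to 1.44), so for both pairs the intervals of CTL and Ti did not overlap. Smaller shifts were seen in other pairs. Col6a1 to Col6a2 was 1.52, 1.43 and 1.45, Col4a1 to Col4a2 was 1.49, 1.33 and 1.44, and Pcolce to Bmp1 was 13.3, 13.3 and 12.0. Enzymes set against Col1a1, whose fold in Ti against CTL was 0.266, shifted more, and Col1a1 was the only chain set against single enzymes. For all members, summed chains to summed enzymes was 2.67, 1.28 and 1.48. Per FPKM of Col1a1 there were 0.326, 1.24 and 1.01 FPKM of P4hb, 0.347, 1.05 and 0.898 of Serpinh1, and 0.0663, 0.333 and 0.275 of Lox. Among fibrillar chains, Col3a1 to Col1a1 was 0.312, 0.537 and 0.444, and Col5a1 to Col1a1 was 0.0671, 0.168 and 0.147.

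**Figure D4:**
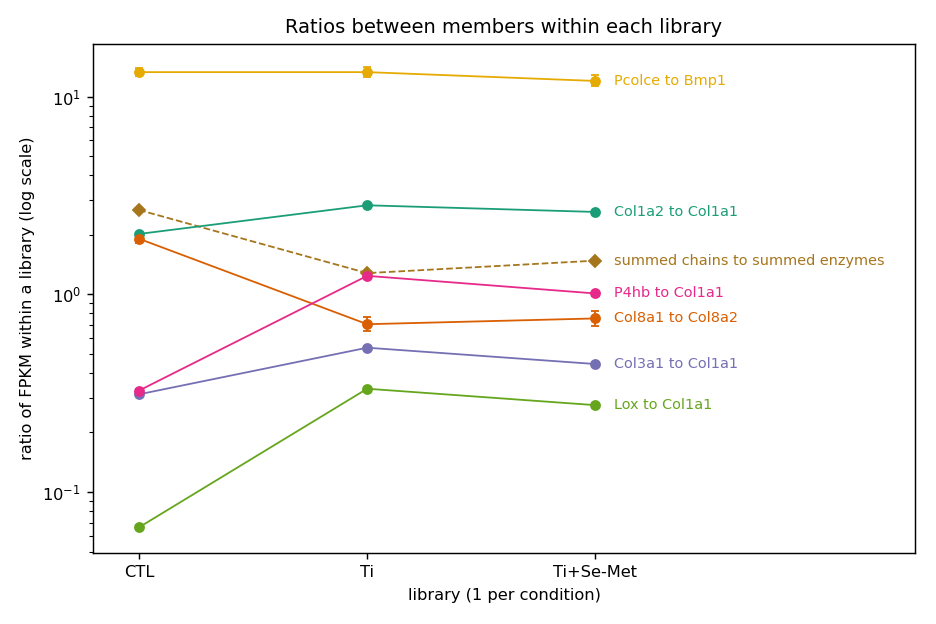
Ratios of FPKM between members within the CTL, Ti and Ti+Se-Met libraries (log scale), with error bars for the 95% interval of counting error and a dashed line for summed chains to summed enzymes. Enzymes per Col1a1 are highest in Ti (P4hb 1.24, Lox 0.333), Col8a1 to Col8a2 is highest in CTL (1.91), and Pcolce to Bmp1 hardly moves.

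Chains have long transcripts, and long transcripts were lower in Ti as a whole. Across the 10919 genes with a length, which are not replicates, Pearson's r of the difference in Ti against CTL with the logarithm of transcript length was -0.29, and with GC content 0.28. The median GC content was 56.4% for chains, 55.4% for enzymes and 50.3% for all genes. The median transcript was 6119 bases for the chains that passed, 2940 for the enzymes and 2918 for all genes. Of genes from 4000 to below 6000 bases, the median difference was -0.08 and 3.91% were at least 2-fold lower, beside a median of -0.97 for the 11 chains of that length, of which 5 were at least 2-fold lower. Of genes of 6000 bases or more, the median was -0.21 and 5.89% were 2-fold lower, beside -0.92 for 12 chains and 6 of them 2-fold lower. Among the 23 chains themselves r with length was -0.11, and with the share of the coding sequence in the glycine repeat -0.17. In Ti+Se-Met against Ti, r with length over all genes was 0.13. The median there was 0.39 for the 11 chains from 4000 to below 6000 bases, beside -0.03 for all genes of that length. For the 12 chains of 6000 bases or more it was 0.3, beside 0.0. The median of the chains was thus below that of genes of their length in both bands in Ti against CTL, and above it in Ti+Se-Met against Ti. The part of GC content in the difference was not tested.

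**Figure D5:**
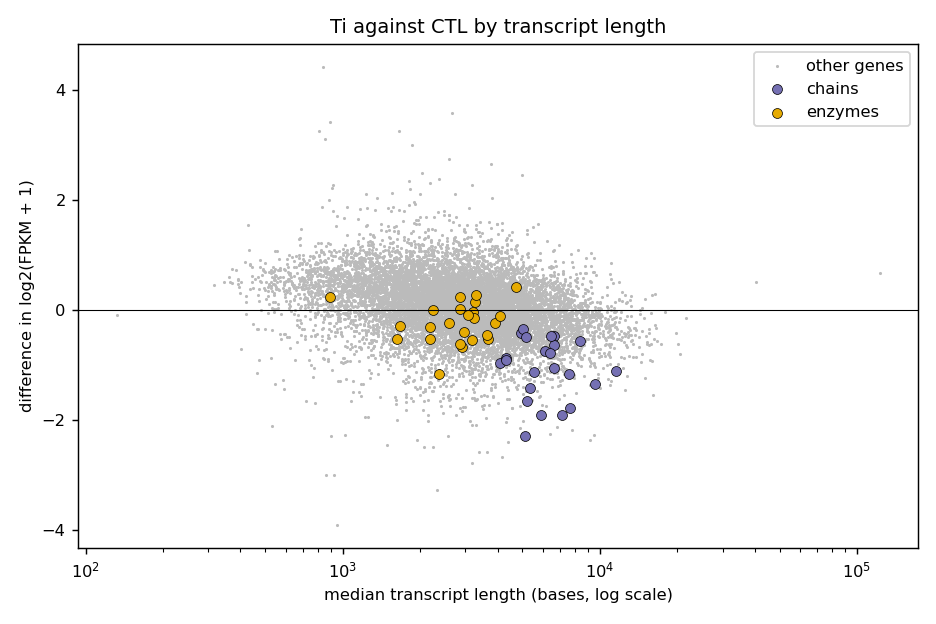
Difference in log2(FPKM + 1) in Ti against CTL by median transcript length (bases, log scale), with 1 point per gene for chains, enzymes and the other genes of the 10919 with a length. Chains lie to the right and below most genes of their length, with a median of -0.97 from 4000 to below 6000 bases where all genes had -0.08.

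Genes around the pathway that are not members were taken from 3 lists. Of the general ER chaperones, which fold many secreted proteins, 7 of 7 were lower in Ti than in CTL, against 44.5% of all genes, and 0 were 2-fold lower, with a median difference of -0.59. In Ti+Se-Met against Ti, 7 of 7 were higher, against 38.5% of all genes, with a median of 0.42. Hsp90b1 (GRP94) had 685, 354 and 473 FPKM, and Pdia4 had 83.7, 55.3 and 82.9. The part of this in the values of the collagen enzymes was not tested. Of 7 collagen receptors and uptake genes that passed, 5 were lower in Ti as deposited (44.5% of all genes) and 2 were at least 2-fold lower (3.64%), namely the integrin subunits Itga1, at 6.59, 1.95 and 2.73 FPKM, and Itga10, at 15.2, 5.84 and 8.02. The collagen receptor Ddr2 had 60.6, 36.6 and 41.7. Mrc2, which takes up collagen for breakdown, had 91.1, 108 and 126. All 7 of these receptor and uptake genes were higher in Ti+Se-Met than in Ti, against 38.5% of all genes, with a median difference of 0.34. Of 10 further genes of modification, propeptide removal and export, 6 were lower and 4 higher in Ti as deposited, where 44.5% of all genes were lower and 55.3% higher, and 1 was at least 2-fold lower (3.64% of all genes). That was Adamts2, which removes the propeptide at the start of the chain, at 29.1, 12.3 and 14.7 FPKM. Between Ti+Se-Met and Ti, 7 of the 10 were higher and 3 lower (38.5% and 61.1% of all genes), with a median difference of 0.06. Sar1b, of the export coat, was at 51.1, 72.5 and 56.6, and Creb3l1, a transcription factor of collagen genes in osteoblasts, at 35.0, 33.2 and 38.1.

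The promoters were read for letters that members might share. RefSeq windows on GRCm38.p6, from 250 bases before to 50 after the start of transcription, were matched for 20 of the 23 chains and 16 of the 24 enzymes that passed. Col1a1 was among the chains without a window. Below are the 250 bases before the start for Col1a2, for Col8a1, which had the largest difference, and for P4hb, which had nearly none, 5′ to 3′ on the strand of the gene and with CCAAT boxes of either strand in capitals.
Col1a2, plus strand, chr6:4505368-4505617: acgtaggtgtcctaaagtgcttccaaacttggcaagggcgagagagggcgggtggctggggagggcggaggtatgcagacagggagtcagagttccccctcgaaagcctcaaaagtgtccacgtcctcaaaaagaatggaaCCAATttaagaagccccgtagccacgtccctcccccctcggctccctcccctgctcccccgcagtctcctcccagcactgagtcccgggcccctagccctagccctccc
Col8a1, minus strand, chr16:57754738-57754987: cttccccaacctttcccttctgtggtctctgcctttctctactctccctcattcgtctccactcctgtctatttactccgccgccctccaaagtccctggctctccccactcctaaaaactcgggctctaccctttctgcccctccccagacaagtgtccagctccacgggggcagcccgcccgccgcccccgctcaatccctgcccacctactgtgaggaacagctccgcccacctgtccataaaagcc
P4hb, minus strand, chr11:120573254-120573503: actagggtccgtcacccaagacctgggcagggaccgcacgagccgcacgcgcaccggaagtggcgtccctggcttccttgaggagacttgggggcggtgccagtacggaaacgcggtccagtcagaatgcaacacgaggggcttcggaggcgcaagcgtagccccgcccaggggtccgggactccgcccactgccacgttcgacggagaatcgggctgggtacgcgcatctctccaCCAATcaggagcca

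On either strand of the whole window, CCAAT was found in 8 of the 20 chains, 6 of the 16 enzymes and 37.9% of all 27025 promoters. The GC box GGGCGG was in 14 chains and 14 enzymes, against 35.9% of all promoters. The members here passed the expression filter and the 27025 promoters were not limited in that way. The share among the other genes that passed was not tested. TATAAA was in 1 chain and 3 enzymes (14.2% of all), and the AP-1 letters TGANTCA were in 1 chain and 0 enzymes (7.93% of all). The ER stress element, which contains a CCAAT box, was in 0 members and in 0.13% of all promoters. A match describes letters in the window and is not a bound site.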

How the data were processed

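RNA-seq of 3 MC3T3-E1 libraries, 1 per condition, was used, grouped by the treatment in the labels. Per the paper's methods, the authors discarded low-quality reads and those holding adapter, aligned the rest with HISAT2 and counted genes with HTSeq, whereas the submitters' processing notes name HISAT2, StringTie, SAMtools and the build mm9. The deposited FPKM values were relative to each library's total, rounded to 2 decimals, with no scaling between libraries stated. How FPKM was made is not given in the sources used here. Columns were matched by name, and 0 were unmatched.

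Python 3.11.15 with pandas 2.3.3, numpy 2.4.6 and, for intervals, scipy 1.17.1 gave the differences in log2(FPKM + 1). FPKM are not counts, and there are no replicates, so no test was run. The threshold was 2-fold against CTL and 1.5-fold between Ti+Se-Met and Ti. Depth was estimated from 1-fragment steps in 453 genes with 1 transcript of 350 to 1000 bases, after 150 bases were subtracted. On it rest 95% exact conditional binomial intervals, which cover counting error only. GENCODE M21 lengths, the median over the matched transcripts of a gene, were found for 95.3% of genes and 98.0% of those tested. The steps were tested on simulated data. Members with a mean FPKM of at least 1 were named with their values, others by range or where a sentence turns on them. The members, lists and thresholds were chosen with earlier results of these data known. As alternatives, other pseudocounts (0.1 and 5), a stricter filter (mean FPKM of 5 or more) or none, other folds and 3 scalings were tried.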

Additional observations from a re-analysis of the deposited data

How the results depend on the processing

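No paired analysis was possible because there was 1 library per condition, and for the same reason none could be left out. Of 68 values of the 8 main results under the alternatives, 0 reversed and 20 moved, a count by over 1.5 times or a distance between medians by more than rounding. A count could only stay the same or move, so a reversal was possible for the distances between medians alone. In Ti against CTL, the 11 chains that were 2-fold lower became 17 at 1.5-fold and 1 at 4-fold, and 1 enzyme became 3 and 0, where 3.64% of all genes became 11.3% and 0.278%. The 11 chains became 8 with a pseudocount of 5 and 10 under the stricter filter, where the share of all genes became 1.55% and 3.1%. With that pseudocount Col4a6 (-0.83), Col24a1 (-0.86) and Col27a1 (-0.75) were no longer 2-fold lower. In Ti+Se-Met against CTL, 7 chains became 4 with a pseudocount of 5 and 0 at 4-fold, where 3.32% of all genes became 1.1% and 0.215%. In Ti+Se-Met against Ti, the 2 chains that were 1.5-fold higher became 1 with a pseudocount of 5 and 0 at 2-fold and at 4-fold, and the 1 enzyme became 0 under each of these, where 0.844% of all genes became 0.296%, 0.162% and 0%. A higher fold or pseudocount leaves fewer genes by construction. The distance between the medians of chains and enzymes in Ti against CTL, -0.73, is fixed by construction under the 3 scalings, which shift all genes nearly alike. It was -0.73 after rounding with a pseudocount of 0.1 and became -0.60 with a pseudocount of 5, -0.77 under the stricter filter (mean FPKM of 5 or more) and -0.26 with no filter. For Ti+Se-Met against Ti the distance was 0.19, and 0.23, 0.18, 0.22 and 0.04 under pseudocounts of 0.1 and 5, the stricter filter and no filter. Without a filter, 15 chains and 3 enzymes below 1 FPKM enter. The pseudocount of 1 makes their differences small. In Ti against CTL those of the chains ran from -0.31 (Col7a1) to 0.07 (Col2a1 and Col28a1). The smaller distances thus follow largely by construction. Depth limits members below 1 FPKM, most of all in Ti+Se-Met, the shallowest library.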

Other observations

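Among chains below 1 FPKM in each library, a pair of cartilage fibril genes differed in opposite directions between Ti+Se-Met and Ti. Col2a1 had a fold of 3.0 (95% interval of counting error 1.63 to 5.69), on about 17 fragments in Ti and 35 in Ti+Se-Met. Col11a2 had a fold of 0.257 (0.0781 to 0.68), on about 28 and 5 fragments. Col28a1 was higher still than Col2a1 in fold, at 3.6, but on about 3 and 7 fragments and with an interval of 0.773 to 20.3 that holds equal levels. These genes were chosen after their values were seen, and with 1 library per condition the differences are between libraries.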
